A study of Mus musculus with 18 samples.

Results

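The circadian clock genes described here were Arntl, Clock, Per1, Per2, Per3, Cry1, Cry2, Nr1d1, Nr1d2 and Dbp. They were taken by name as 10 of the 41325 entries of the count table. All 10 passed the filter on low counts and were among the 19941 genes tested. RNA came from the ovaries of WT mice, from the mural granulosa cells that line the follicle wall and from the cumulus cells around the oocyte. Cells were taken 0, 4 and 12 h after hCG, a gonadotropin that acts on the LH receptor and triggers ovulation, which gave 6 groups of 3 libraries and 18 libraries in all. Each 0 h group was the control of its own cell type for both later times. Mouse strain, age, sources of the replicates and the clock time of collection could not be read from the labels. Time after hCG and time of day therefore cannot be told apart in any comparison between times, and p-values measure only the spread between these libraries, which may be technical.

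As background, the circadian clock is a feedback loop of transcription found in most cells of the body, the follicle included. The proteins of Arntl (BMAL1) and Clock form a dimer that binds E-boxes and activates the Per, Cry, Nr1d and Dbp genes. PER and CRY proteins then repress that dimer, the Nr1d proteins (REV-ERB) repress Arntl through ROR elements, and DBP activates genes that carry D-boxes. Per1 is also known as a gene that responds to cAMP and CREB, and cAMP is the second messenger of the LH receptor.

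The sequences below are shown because they hold the letters of these regulatory elements. They lie before the annotated start, except that of Arntl, which lies after it, and the Cry2 match named below is not printed. They come from RefSeq windows of 300 bases on GRCm38.p6, with 250 bases before and 50 after each annotated start. The windows included 13 for 9 of the members, and 32851 in all. Capitals mark an E-box (CACGTG), a D-box (TTATGTAA, TTATGCAA, TTACGTAA or TTACGCAA), the core of the cAMP response element (TGACG) or a ROR element, and sequences are read in the direction of the gene.
Per1, upstream start, chr11:69098699-69098948, plus strand: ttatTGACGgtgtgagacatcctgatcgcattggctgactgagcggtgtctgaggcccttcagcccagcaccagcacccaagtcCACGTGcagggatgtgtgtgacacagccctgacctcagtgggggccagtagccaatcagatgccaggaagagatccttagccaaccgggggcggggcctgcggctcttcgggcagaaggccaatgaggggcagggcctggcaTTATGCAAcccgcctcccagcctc
Per1, downstream start, chr11:69099902-69100151, plus strand: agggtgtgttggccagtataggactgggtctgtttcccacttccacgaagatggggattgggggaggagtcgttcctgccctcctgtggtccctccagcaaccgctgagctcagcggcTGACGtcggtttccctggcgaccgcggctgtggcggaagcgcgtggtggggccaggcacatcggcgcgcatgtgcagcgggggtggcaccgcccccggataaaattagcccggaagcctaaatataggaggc
Cry1, chr10:85185055-85185304, minus strand: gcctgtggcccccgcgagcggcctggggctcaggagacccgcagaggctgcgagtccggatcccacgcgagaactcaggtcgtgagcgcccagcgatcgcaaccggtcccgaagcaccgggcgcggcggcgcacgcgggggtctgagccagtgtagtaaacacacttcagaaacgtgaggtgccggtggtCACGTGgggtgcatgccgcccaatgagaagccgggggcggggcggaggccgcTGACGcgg
Per3, chr4:151044666-151044915, minus strand: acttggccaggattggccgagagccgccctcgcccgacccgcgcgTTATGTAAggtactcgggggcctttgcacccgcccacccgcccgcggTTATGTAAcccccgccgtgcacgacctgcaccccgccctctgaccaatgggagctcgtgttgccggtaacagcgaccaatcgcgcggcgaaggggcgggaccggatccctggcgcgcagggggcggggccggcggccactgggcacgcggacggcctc
Arntl, ROR element, chr7:113207532-113207552, plus strand: ggcagAAAGTAGGTCAgggac

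Searched on both strands, the E-box letters occurred in windows of Per1 and Cry1 among the members and in 7.15% of all windows. D-box letters occurred in Per1 and, at 2 places, in Per3, against 1.94% of all windows. The cAMP response element core occurred in Per1, Cry1 and Cry2, against 20.8% of all windows, and each full element TGACGTCA would also hold this core. That full element was in no member window and in 1.79% of all windows. A ROR element was read as AGGTCA after 5 bases of which at least 4 were A or T. It occurred in Arntl, at bases 27 to 37 after the start, and in 2.66% of all windows. These matches are descriptions of letters in short windows and were not tested as binding sites.

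Libraries held from 32211630 to 47919446 counts, and 3 counts in 1 library (what a count of 0 allows at most) equalled 0.0585 to 0.0999 CPM (counts per M counts, M for mega), a limit that covers counting error only. CPM values use totals scaled by edgeR's TMM factors. A gene is called here where edgeR's quasi-likelihood test gave a Benjamini-Hochberg adjusted p under 0.05 over all genes tested, and changes are log2 values ± SE. Libraries were grouped by their titles, since the cell type field read mural for 8 of the 9 libraries titled as cumulus and was empty for 1. The LH receptor gene Lhcgr, a mural marker, lay between 331 and 729 CPM in libraries titled mural and between 1.18 and 13.7 CPM in those titled cumulus. Of 4 mural markers, 4, 3 and 4 were called lower in cumulus cells at 0, 4 and 12 h, and none higher. Of 5 cumulus markers, 2 were called higher in cumulus cells and none lower at 0 h. At both 4 and 12 h, 1 of these 5 was called higher and 3 lower.

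Cumulus libraries also held RNA of oocyte markers, in unequal amounts. The summed level of 15 such markers was 440, 2082 and 2157 CPM at 0 h, 2455, 1281 and 7854 CPM at 4 h, and 7.83, 10.6 and 5.65 CPM at 12 h, when 3 of the 15 markers were at 0. Mural libraries lay between 138 and 657 CPM at all 3 times. Replicate 3 of the cumulus 4 h group thus had 4.20 times the mean oocyte sum of the other 2, and replicate 1 of the cumulus 0 h group had 0.207 times. Per3 stood at 4.21 times and 0.559 times the mean of the other 2 libraries in the same 2 libraries. Arntl stood at 3.31 and 0.334 times, Nr1d1 at 1.99 and 0.745 times, and Cry1 at 1.78 and 0.664 times. Cry2 and Nr1d2 were low in the first of these, at 0.670 and 0.647 times, and Per1, Per2, Clock and Dbp stayed between 0.912 and 1.08 times in both. The part of the oocyte RNA in the cumulus results was not tested, and values without both libraries are given where they change a call or a direction.

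**Figure D1:**
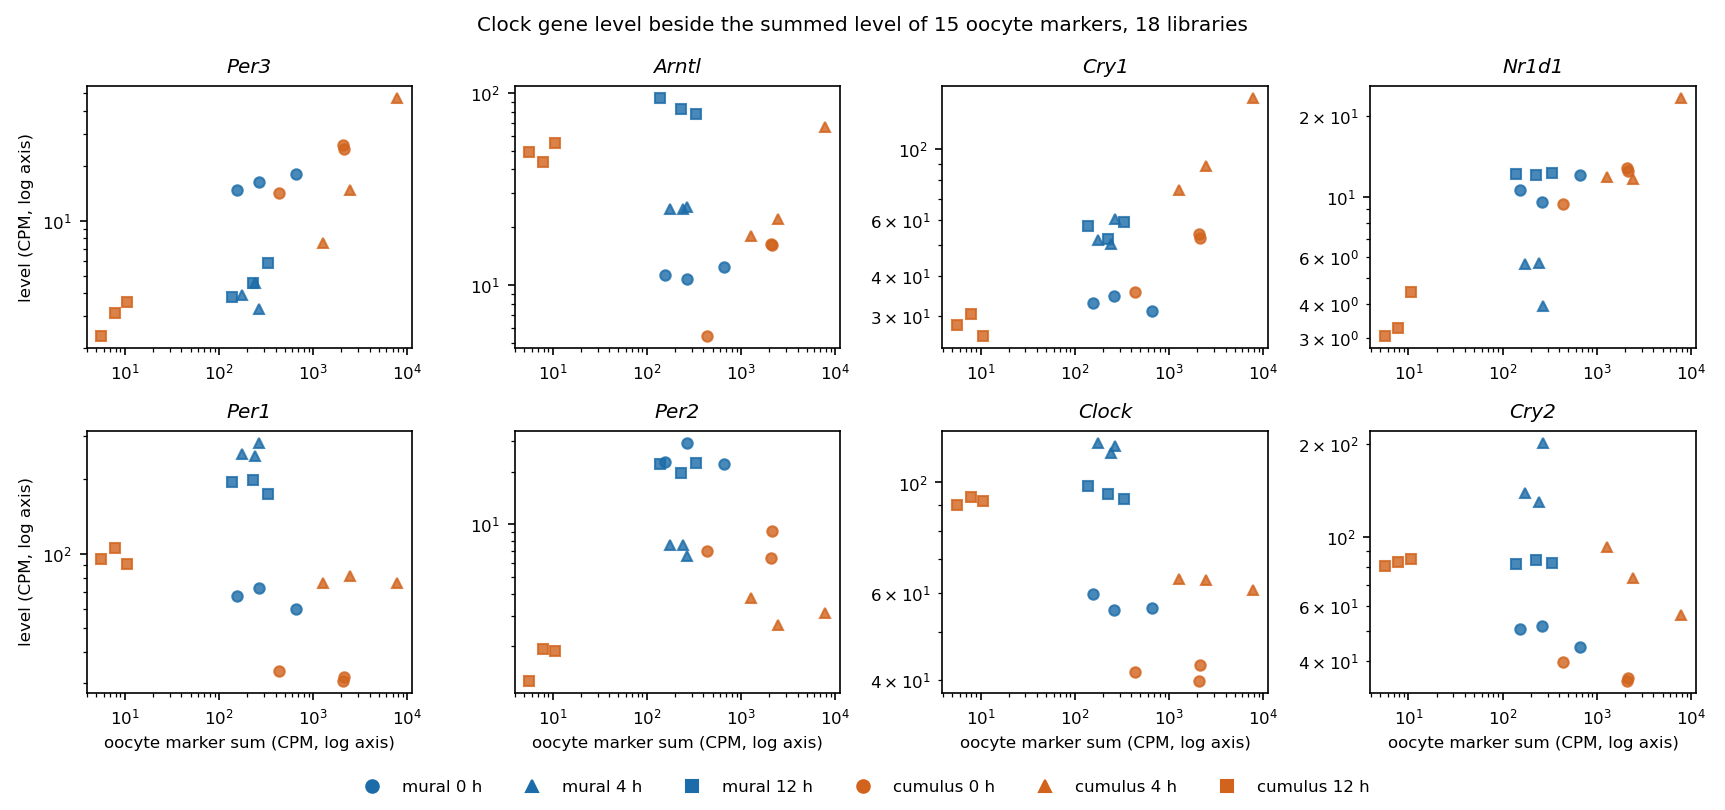
Level of 8 clock genes (CPM, log axis) beside the summed level of 15 oocyte markers (CPM, log axis), 1 point for each of the 18 libraries, with colour for cell type and shape for time. The cumulus 4 h library at the far right, at 7854 CPM of oocyte markers, has the highest Per3, Cry1 and Nr1d1 of the 18, while its Per1, Per2 and Clock lie beside the other 2 libraries of its group.

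In mural cells 4 h after hCG, 5 clock genes were higher than at 0 h and 5 were lower. Per1, Cry2, Arntl, Clock and Cry1 rose by between 0.72 and 1.97 on the log2 scale, and Dbp, Per3, Per2, Nr1d2 and Nr1d1 fell by between 1.08 and 2.65. The libraries of the 2 times did not overlap for any of the 10. They also did not overlap for 16 of the 20 other clock pathway genes described further below. The share of all genes without overlap was not computed, so this count is no result about the 10. Of all genes tested, 22.8% were called higher and 22.3% lower in this comparison. The median change was -0.18 over the 10 and -0.06 over all genes tested. Scaling by library totals instead put the median of all genes at -0.38, the share of called genes that were higher went from 50.6% to 29.1%, and the directions of the 10 were the same. Erythroid marker RNA moved with time too, with 6 of 6 markers higher and a summed level of 87.7 to 145 CPM at 0 h against 449 to 700 CPM at 4 h. Leukocyte markers summed to 11.46 to 19.5 against 23.6 to 28.4 CPM, with 3 of 6 called higher and none lower. Endothelial markers summed to 28.1 to 43.0 against 53.7 to 64.4 CPM, though 1 of 4 was called higher and their median change was -0.037. Theca markers summed to 226 to 295 against 143 to 182 CPM, with 1 of 5 called lower and none higher. The part of such RNA in the mural results was not tested, and in bulk samples fewer cells of a type and less RNA per cell cannot be told apart.

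By 12 h in mural cells, Arntl, Per1, Cry1, Cry2 and Clock were higher than at 0 h (5 of 10, against 21.6% of all genes), and Per3 and Nr1d2 were lower (2 of 10, against 19% of all genes). Per2, Nr1d1 and Dbp, all lower at 4 h, were not called against 0 h. The Dbp libraries of 0 and 12 h did not overlap, and Dbp was called lower in a fit of those 2 groups alone (-0.50, adjusted p = 0.00987), which made 8 genes rather than 7. Calls over all genes went from 8108 to 10534 in that fit. Between 4 and 12 h, Dbp, Arntl, Per2, Nr1d1 and Nr1d2 rose (18.3% of all genes) and Cry2, Per1 and Clock fell (16.1% of all genes), while Per3 and Cry1 were not called. The median over the 10 was 0.46 for 12 h against 0 h and 0.40 for 12 h against 4 h, beside -0.05 and 0.01 over all genes. Marker RNA differed from 0 h at 12 h too. Erythroid markers summed to 380 to 734 CPM (6 of 6 called higher) and endothelial markers to 127 to 158 CPM (1 of 4 higher, 0 lower). Granulosa markers summed to 1812 to 2324 CPM, against 10153 to 12510 CPM at 0 h, with 5 of 5 called lower. The part of these shifts in the clock gene changes was not tested.

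**Figure D2:**
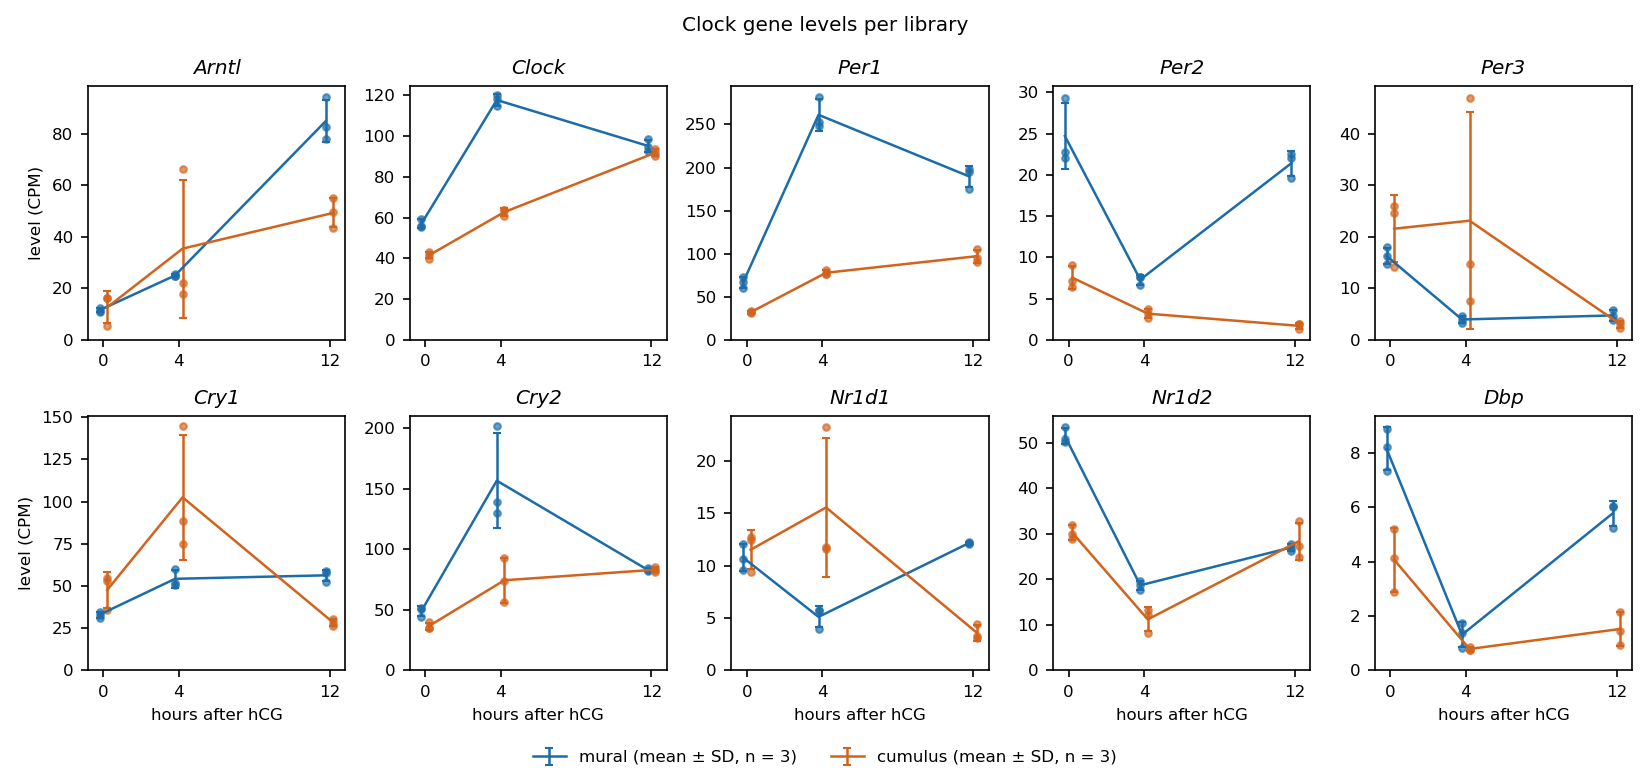
Level of each clock gene (CPM, linear axis from 0) against hours after hCG, with 1 point per library and the mean ± SD of 3 libraries for mural (blue) and cumulus (orange) cells. Mural Per2 starts at 22.0 to 29.4 CPM, drops to 6.60 to 7.64 CPM at 4 h and is back at 19.7 to 22.5 CPM at 12 h, while cumulus Per2 goes down to 1.27 to 1.92 CPM.

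Arntl, which encodes the CLOCK partner BMAL1, lies at chr7:113207465-113314126 on the plus strand of GRCm38, and the positions that follow are on the same build, from the GENCODE M21 annotation. In mural cells it stood at 11.3, 10.8 and 12.4 CPM at 0 h, 24.7, 25.4 and 24.8 CPM at 4 h, and 78.0, 94.1 and 82.8 CPM at 12 h. Each later group lay above the earlier one with no overlap. The log2 change was 2.89 ± 0.41 from 0 to 12 h (adjusted p = 1.82e-05), 1.77 ± 0.39 from 4 to 12 h (adjusted p = 0.00189) and 1.12 ± 0.39 from 0 to 4 h (adjusted p = 0.0274). The call at 4 h was lost with library totals (0.79, adjusted p = 0.174), with no filter on low counts (adjusted p = 0.104) and without any 1 of the 6 mural libraries (adjusted p from 0.0628 to 0.143). It stood at an adjusted p of 2.92e-06 in a fit of those 6 libraries alone, where the wide spread of the cumulus libraries does not enter.

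In cumulus cells Arntl stood at 5.41, 16.3 and 16.1 CPM at 0 h, 22.1, 17.9 and 66.2 CPM at 4 h, and 43.5, 54.9 and 49.5 CPM at 12 h. The 0 h and 12 h libraries did not overlap, while the 4 h group spanned from just above the first to beyond the second. The log2 change was 1.96 ± 0.40 from 0 to 12 h (adjusted p = 0.000354) and 1.49 ± 0.39 from 0 to 4 h (adjusted p = 0.0048). Without replicate 3 of the 4 h group the latter was 0.66 and not called (adjusted p = 0.12), and without both libraries named above it was 0.31 (adjusted p = 0.0496). In a fit of the 2 groups alone it was 1.43 and not called (adjusted p = 0.134). From 4 to 12 h the change was 0.48 ± 0.38 and not called, but without both libraries it was 1.30 (adjusted p = 6.47e-09).

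Clock, the other partner of the activating dimer, lies at chr5:76209868-76304792 on the minus strand. Its mural level was 59.5, 55.5 and 56.0 CPM at 0 h, 120, 118 and 115 CPM at 4 h, and 92.6, 98.4 and 94.8 CPM at 12 h. Its cumulus level was 41.6, 39.9 and 42.9 CPM at 0 h, 63.5, 64.0 and 60.7 CPM at 4 h, and 93.5, 91.7 and 90.1 CPM at 12 h. The mural level was thus highest at 4 h and the cumulus level at 12 h, and within each cell type no 2 times overlapped. In mural cells Clock rose by 1.05 ± 0.07 by 4 h (adjusted p = 1.78e-09) and then fell by 0.31 ± 0.07 from 4 to 12 h (adjusted p = 0.00247), a fall that was not called with library totals (-0.16, adjusted p = 0.102). In cumulus cells it rose by 0.60 ± 0.07 by 4 h and by a further 0.55 ± 0.07 by 12 h (adjusted p = 1.95e-06 and 3.69e-06).

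The 3 Period genes, which encode repressors of the dimer, followed 3 courses. Per1 lies at chr11:69095217-69109960 on the plus strand. Its mural level was 67.2, 72.7 and 59.9 CPM at 0 h, 253, 282 and 248 CPM at 4 h, and 175, 195 and 199 CPM at 12 h. Its cumulus level was 33.6, 30.5 and 31.8 CPM at 0 h, 81.0, 75.9 and 76.4 CPM at 4 h, and 105, 90.7 and 95.1 CPM at 12 h. No 2 of the 6 groups overlapped, and mural cells stood above cumulus cells at each time. Per1 rose 3.92-fold in mural cells by 4 h (log2 1.97 ± 0.10, adjusted p = 2.35e-11) and 2.43-fold in cumulus cells (1.28 ± 0.10, adjusted p = 4.9e-09). From 4 to 12 h it fell by 0.46 ± 0.09 in mural cells (adjusted p = 0.000773) and rose by 0.32 ± 0.09 in cumulus cells (adjusted p = 0.0069). That last rise was not called in a fit of the 2 cumulus groups alone (0.26, adjusted p = 0.0807).

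Per2 lies at chr1:91415982-91459324 on the minus strand and, unlike Per1, was lower at 4 h in both cell types. Its mural level was 22.7, 29.4 and 22.0 CPM at 0 h, 7.62, 6.60 and 7.64 CPM at 4 h, and 22.5, 22.0 and 19.7 CPM at 12 h. The 12 h libraries overlapped those at 0 h (log2 -0.21 ± 0.18, adjusted p = 0.411), while the 4 h libraries lay below both others. Per2 fell by 1.76 ± 0.19 by 4 h (adjusted p = 6.72e-07) and rose by 1.55 ± 0.19 from 4 to 12 h (adjusted p = 4.81e-06). In cumulus cells it stood at 7.07, 6.40 and 9.10 CPM at 0 h, 2.65, 3.76 and 3.09 CPM at 4 h, and 1.92, 1.88 and 1.27 CPM at 12 h. Here each later time was lower than the one before, with changes of -1.25 ± 0.19 (adjusted p = 3.54e-05) and then -0.91 ± 0.20 (adjusted p = 0.000891). At 12 h cumulus cells held 12.7-fold less Per2 than mural cells (log2 -3.66 ± 0.21, adjusted p = 6.48e-10), the widest gap of the 10 genes between cell types at any of the 3 times.

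Per3 lies at chr4:151003652-151044665 on the minus strand, wholly within the longer gene Camta1 on the same strand, so how reads were shared between them depends on the authors' counting. Its mural level was 14.7, 16.2 and 17.96 CPM at 0 h, 3.93, 3.30 and 4.58 CPM at 4 h, and 5.84, 3.81 and 4.53 CPM at 12 h. Both later times lay below 0 h, by 2.05 ± 0.46 (adjusted p = 0.00134) and 1.78 ± 0.45 (adjusted p = 0.00383), and they overlapped each other. Camta1 changed by -0.55 ± 0.14 and -0.86 ± 0.14 in the same comparisons. In cumulus cells Per3 stood at 14.1, 26.0 and 24.6 CPM at 0 h, 14.7, 7.59 and 47.1 CPM at 4 h, and 3.10, 3.61 and 2.32 CPM at 12 h. The 4 h change was 0.10 ± 0.43 (adjusted p = 0.865) with all libraries, -0.95 (adjusted p = 0.0129) without replicate 3 of the 4 h group, and -1.18 (adjusted p = 0.000735) without both libraries that stood apart. By 12 h Per3 was lower than at 0 h by 2.84 ± 0.47 (adjusted p = 4.77e-05), while the oocyte markers had gone from between 440 and 2157 CPM to at most 10.6 CPM. Cumulus Camta1 was called lower than at 0 h at both later times, with changes of -0.84 ± 0.14 at 4 h and -1.38 ± 0.14 at 12 h.

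The 2 cryptochromes encode the partners of PER. Cry1 lies at chr10:85131700-85185064 on the minus strand. In mural cells it stood at 32.9, 34.6 and 31.1 CPM at 0 h, 51.8, 60.2 and 50.5 CPM at 4 h, and 58.9, 57.4 and 52.4 CPM at 12 h. The later times overlapped each other and lay above 0 h, by 0.72 ± 0.19 at 4 h (adjusted p = 0.00531) and 0.77 ± 0.19 at 12 h (adjusted p = 0.00348), and the 4 h rise was not called with library totals (0.39, adjusted p = 0.158). In cumulus cells Cry1 stood at 35.5, 54.4 and 52.8 CPM at 0 h, 88.3, 74.7 and 145 CPM at 4 h, and 30.4, 25.9 and 28.1 CPM at 12 h. It was thus highest at 4 h and lowest at 12 h, with no overlap between times. Its log2 change was 1.11 ± 0.19 by 4 h (adjusted p = 0.00013), or 0.60 without both libraries that stood apart, and -0.76 ± 0.19 from 0 to 12 h (adjusted p = 0.00241).

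Cry2 lies at chr2:92403646-92434043 on the minus strand. Its mural level was 50.8, 51.7 and 44.2 CPM at 0 h, 139, 202 and 130 CPM at 4 h, and 82.7, 82.1 and 84.1 CPM at 12 h. In cumulus cells it was 39.7, 34.5 and 35.1 CPM at 0 h, 74.1, 92.9 and 56.0 CPM at 4 h, and 83.2, 85.0 and 81.0 CPM at 12 h. All later libraries lay above those at 0 h in both cell types, and the 12 h levels of the cell types overlapped (log2 difference 0.00 ± 0.16). Cry2 rose by 1.68 ± 0.17 by 4 h in mural cells (adjusted p = 1.93e-07) and by 1.03 ± 0.16 in cumulus cells (adjusted p = 4.57e-05). From 4 to 12 h it fell by 0.92 ± 0.16 in mural cells (adjusted p = 0.000221), and in cumulus cells the change was 0.16 ± 0.16 and not called.

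Nr1d1 and Nr1d2 encode REV-ERB alpha and beta, nuclear receptors that repress Arntl. Nr1d1 lies at chr11:98767932-98775333 on the minus strand, and its last 1075 bases (chr11:98767932-98769006) overlap Thra, a thyroid hormone receptor gene on the opposite strand. The library kit kept strand, per the labels, but the labels do not say whether the counting used it, so reads from the overlap could belong to either gene. In mural cells Nr1d1 stood at 10.6, 9.59 and 12.1 CPM at 0 h, 5.63, 3.93 and 5.70 CPM at 4 h, and 12.3, 12.2 and 12.1 CPM at 12 h. The 4 h libraries lay below both other times, with a fall of 1.08 ± 0.25 (adjusted p = 0.00165) and a later rise of 1.26 ± 0.25 (adjusted p = 0.000676). Thra changed in the same directions, by -2.00 ± 0.13 and 1.24 ± 0.12. In cumulus cells Nr1d1 stood at 9.36, 12.7 and 12.4 CPM at 0 h, 11.6, 11.8 and 23.2 CPM at 4 h, and 3.25, 4.43 and 3.04 CPM at 12 h. The first 2 times overlapped (0.43 ± 0.24, adjusted p = 0.148), and 12 h lay below 0 h by 1.69 ± 0.25 (adjusted p = 1.52e-05). Thra went the other way from Nr1d1 between 4 and 12 h in cumulus cells, rising by 0.65 ± 0.12 while Nr1d1 fell by 2.12 ± 0.26.

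Nr1d2 lies at chr14:18204054-18239127 on the minus strand. Its mural level was 50.1, 53.5 and 50.8 CPM at 0 h, 17.6, 18.8 and 19.5 CPM at 4 h, and 26.3, 26.9 and 27.7 CPM at 12 h. Its cumulus level was 31.9, 29.9 and 28.7 CPM at 0 h, 12.0, 13.3 and 8.17 CPM at 4 h, and 24.8, 32.7 and 27.4 CPM at 12 h. The 4 h libraries were the lowest of the 3 times in both cell types, and 12 h overlapped 0 h in cumulus cells but stayed below it in mural cells. The fall by 4 h was 1.46 ± 0.14 in mural cells (adjusted p = 1.77e-07) and 1.44 ± 0.14 in cumulus cells (adjusted p = 2.09e-07). The rise from 4 to 12 h was 0.53 ± 0.14 in mural cells (adjusted p = 0.00659) and 1.34 ± 0.14 in cumulus cells (adjusted p = 4.26e-07).

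Dbp, a D-box activator that is a direct target of the dimer, lies at chr7:45705088-45710203 on the plus strand, and its last 737 bases overlap Sphk2 on the opposite strand. In mural cells it stood at 8.24, 7.33 and 8.89 CPM at 0 h, 1.73, 0.82 and 1.35 CPM at 4 h, and 5.25, 6.03 and 6.05 CPM at 12 h. It fell 6.25-fold by 4 h (log2 -2.65 ± 0.32, adjusted p = 2.68e-06) and rose 4.43-fold from 4 to 12 h (2.15 ± 0.32, adjusted p = 3.87e-05). Sphk2 changed by 0.13 ± 0.09 and 0.06 ± 0.09 in the same comparisons and was called in neither. In cumulus cells Dbp stood at 4.12, 2.86 and 5.22 CPM at 0 h, 0.85, 0.73 and 0.75 CPM at 4 h, and 2.16, 0.94 and 1.45 CPM at 12 h. The 3 times did not overlap there, and the lowest library, at 0.73 CPM, was still well above the level of 3 counts. The cumulus fall by 4 h was 2.38 ± 0.33 (adjusted p = 9.43e-06), and the rise from 4 to 12 h, 0.96 ± 0.33 (adjusted p = 0.0172), was not called without replicate 1 of the 12 h group (0.63, adjusted p = 0.124) or in a fit of the 2 groups alone (0.90, adjusted p = 0.108). Cumulus Sphk2 changed by 0.19 ± 0.09 by 4 h, which was not called. From 4 to 12 h it rose by 0.58 ± 0.09 (adjusted p = 2.42e-05), the direction of Dbp there. The part of reads from the shared bases in the Dbp counts was not tested.

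Counted together, 8 of the 10 genes were called in cumulus cells at 4 h against 0 h. Arntl, Per1, Cry1, Cry2 and Clock were higher (25% of all genes) and Dbp, Nr1d2 and Per2 were lower (22.8% of all genes). At 12 h against 0 h, Arntl, Per1, Cry2 and Clock were higher (31.2% of all genes), Per3, Per2, Nr1d1, Dbp and Cry1 were lower (32.9% of all genes) and Nr1d2, at -0.09 ± 0.14, was not called. From 4 to 12 h, Nr1d2, Dbp, Clock and Per1 were higher (29.2% of all genes) and Per3, Nr1d1, Cry1 and Per2 were lower (31.3% of all genes). The medians over the 10 were 0.52, -0.43 and 0.24 in these 3 comparisons, beside 0.13, -0.09 and -0.04 over all genes. The shares over all genes were larger than in mural cells at each of these comparisons. Endothelial markers in cumulus libraries summed to 9.20 to 16.6 CPM at 0 h and 164 to 201 CPM at 12 h, with 2 of 4 called higher and 2 lower. Erythroid markers there summed to 8.73 to 17.7 and 17.9 to 109 CPM, with 4 of 6 called higher and 1 lower. The share of mitochondrial counts went from between 8.49% and 12.8% to between 2.52% and 2.98%. The part of these 3 measures in the clock gene changes was not tested. With the log2 oocyte sum as a covariate, Per1, Per2, Arntl and Clock were the 4 still called at 12 h against 0 h, and Arntl the 1 called at 12 h against 4 h. The 12 h oocyte sums lay below those of all other groups, so covariate and time cannot be told apart there.

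**Figure D3:**
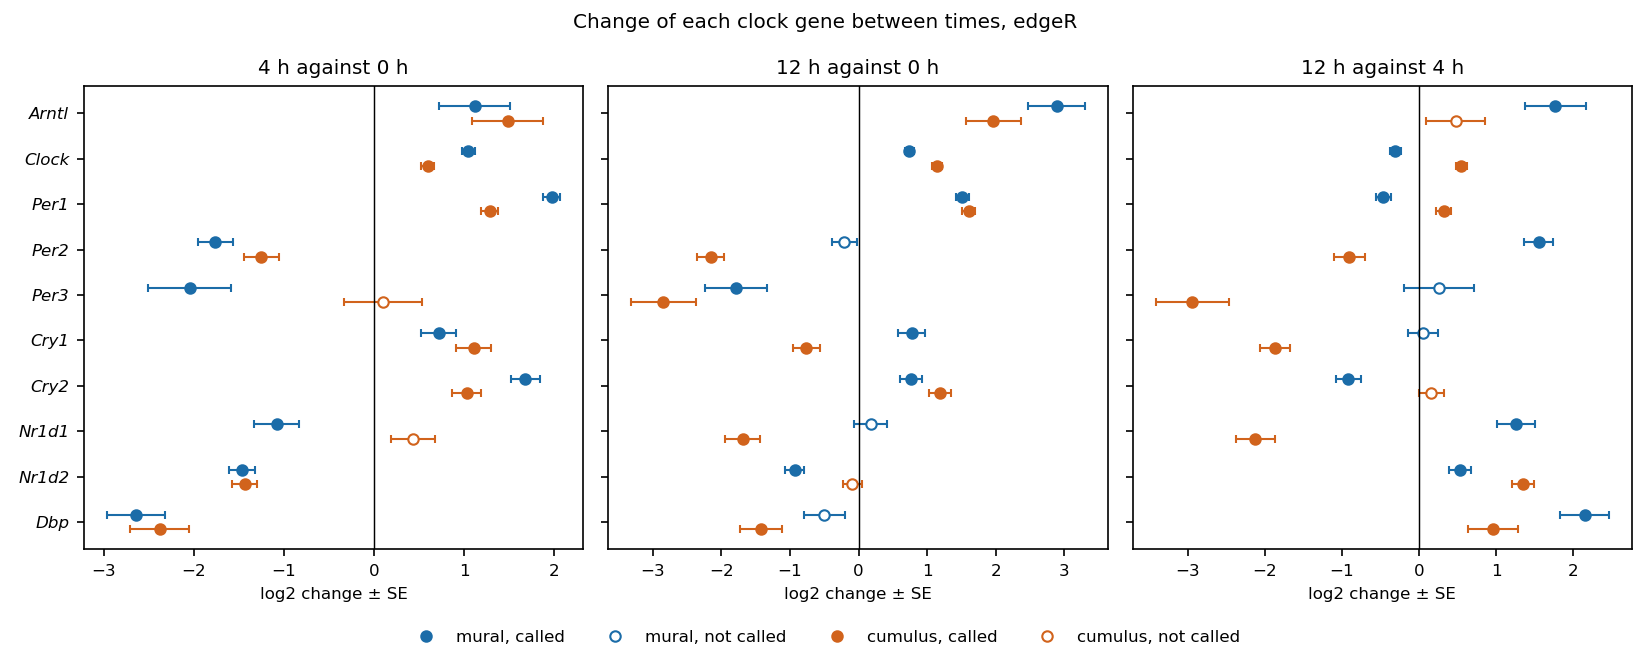
Log2 change ± SE of each clock gene between pairs of times in mural (blue) and cumulus (orange) cells, from edgeR. Filled points were called and open points were not. At 4 h against 0 h, Arntl, Clock, Per1, Cry1 and Cry2 lie to the right of 0 and Per2, Nr1d2 and Dbp to the left in both cell types, while from 4 to 12 h Per1, Per2, Clock and Nr1d1 were called with opposite signs in the 2 cell types.

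Between cell types before hCG, cumulus cells had less Per2 (log2 -1.71 ± 0.19), Per1 (-1.06 ± 0.10), Dbp (-1.004 ± 0.30), Nr1d2 (-0.77 ± 0.14), Clock (-0.46 ± 0.07) and Cry2 (-0.42 ± 0.16), which is 6 of 10 against 25.3% of all genes. Cry1 was higher (0.53 ± 0.19, 1 of 10 against 21.5% of all genes). Per3, Arntl and Nr1d1 were not called, at 0.41 ± 0.43, 0.14 ± 0.39 and 0.10 ± 0.24. Without both libraries that stood apart, 9 genes were called rather than 7, as Arntl (0.49, adjusted p = 0.00105) and Per3 (0.64, adjusted p = 0.023) were then higher in cumulus cells. Calls over all genes went from 9333 to 11174 in that fit. With the oocyte sum as a covariate Arntl stood at -1.01 (adjusted p = 0.0283), and Cry1 (0.070, adjusted p = 0.791) and Cry2 (-0.17, adjusted p = 0.48) were not called. The calls of Cry1 and Cry2, with adjusted p of 0.0312 and 0.0395, and of Dbp were the ones lost when libraries were left out. With 1 library left out at a time, Cry1 was not called in 5 of 6 fits, Cry2 in 4 of 6 and Dbp in 1 of 6. Without replicate 2 of the cumulus 0 h group 4 genes were called, and Cry1 then stood at 0.44 (adjusted p = 0.123), Cry2 at -0.37 (adjusted p = 0.114) and Dbp at -0.79 (adjusted p = 0.067).

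At 4 h, cumulus cells had more Per3 (2.55 ± 0.46), Nr1d1 (1.61 ± 0.25) and Cry1 (0.92 ± 0.19), 3 of 10 against 27.6% of all genes. These 3 are among the genes whose cumulus level was high in the library with the highest oocyte sum. Without both libraries that stood apart, they were still called, at 1.51, 1.203 and 0.59. With the log2 oocyte sum as a covariate none of the 3 was called, with Per3 at 0.21 (adjusted p = 0.796), Nr1d1 at 0.69 (adjusted p = 0.125) and Cry1 at 0.12 (adjusted p = 0.765). Oocyte sums at 4 h were 1281 to 7854 CPM in cumulus and 175 to 266 CPM in mural libraries. Covariate and cell type therefore cannot be told apart at 4 h. Cumulus cells had less Per1 (-1.75 ± 0.10), Per2 (-1.21 ± 0.19), Cry2 (-1.08 ± 0.16), Clock (-0.91 ± 0.07) and Nr1d2 (-0.74 ± 0.14), 5 of 10 against 27% of all genes, and of these Nr1d2 was not called with the covariate (-0.44, adjusted p = 0.144). Arntl (0.50 ± 0.39) and Dbp (-0.74 ± 0.33) were not called, and Arntl stood at -0.32 (adjusted p = 0.0246) without both libraries and at -1.46 (adjusted p = 0.0258) with the covariate.

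At 12 h, when cumulus libraries held almost no oocyte marker RNA, none of the 10 was called higher in cumulus cells, against 18% of all genes. Per2, Dbp (-1.93 ± 0.31), Nr1d1 (-1.77 ± 0.25), Cry1 (-0.9996 ± 0.19) and Per1 (-0.97 ± 0.09) were lower, 5 of 10 against 20.5% of all genes. Clock and Nr1d2 overlapped between the cell types, at -0.05 ± 0.07 and 0.07 ± 0.14. Arntl (-0.79 ± 0.38, adjusted p = 0.118) and Per3 (-0.65 ± 0.46, adjusted p = 0.278) did not overlap and were not called, and both were called in a fit of the 2 groups alone (adjusted p = 2.98e-06 and 0.0141). With the oocyte covariate, Cry1 (-0.0095) and Nr1d1 (-0.66) were not called (adjusted p = 0.986 and 0.22), and Arntl (1.47) and Per3 (1.997) were called higher (adjusted p = 0.0464 and 0.0103). Oocyte sums at 12 h were 5.65 to 10.6 CPM in cumulus and 138 to 332 CPM in mural libraries. Covariate and cell type therefore cannot be told apart at 12 h. The medians over the 10 for cumulus against mural cells at 0, 4 and 12 h were -0.44, -0.74 and -0.88, beside -0.03, -0.01 and -0.07 over all genes.

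Whether the 2 cell types changed by unequal amounts was tested directly, as the cumulus change minus the mural change. From 0 to 4 h it was called for Per1 (-0.69 ± 0.13, adjusted p = 0.0018) and Clock (-0.45 ± 0.10, adjusted p = 0.00584), 2 of 10 against 7.26% of all genes called lower. It was called in the other direction for Per3 (2.15 ± 0.62, adjusted p = 0.0294) and Nr1d1 (1.51 ± 0.35, adjusted p = 0.00701), 2 of 10 against 6.78% of all genes. The Per1 and Clock rise was thus smaller in cumulus cells, and the Clock difference was not called with library totals (-0.28, adjusted p = 0.0786). For Per3 the difference was 0.87 and not called (adjusted p = 0.0827) without both libraries that stood apart, and with 1 of the 12 libraries left out at a time it was not called in 10 of the 12 fits, with adjusted p up to 0.0914. It was not called with the oocyte covariate (1.01, adjusted p = 0.11) or in a fit of the 4 groups alone (2.15, adjusted p = 0.112). The Nr1d1 difference was 0.98 (adjusted p = 0.0112) without both. Per2 (0.51), Cry1 (0.39), Cry2 (-0.65, adjusted p = 0.0654), Arntl (0.37), Nr1d2 (0.03) and Dbp (0.27) were not called, and without both libraries Arntl stood at -0.81 (adjusted p = 0.00117).

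From 0 to 12 h the difference was called lower for Per2 (-1.95 ± 0.27, adjusted p = 2.48e-05), Nr1d1 (-1.87 ± 0.35, adjusted p = 0.000415) and Cry1 (-1.53 ± 0.27, adjusted p = 0.000277), 3 of 10 against 20% of all genes. It was called higher for Nr1d2 (0.84 ± 0.20, adjusted p = 0.00261) and Clock (0.41 ± 0.10, adjusted p = 0.00378), 2 of 10 against 20.1% of all genes. Per1 (0.09), Cry2 (0.43), Arntl (-0.92), Dbp (-0.92) and Per3 (-1.06) were not called. Without both libraries that stood apart, Arntl (-1.28, adjusted p = 6.39e-07), Per3 (-1.29, adjusted p = 0.00243) and Cry2 (0.49, adjusted p = 0.0435) were called as well. In a fit of the 4 groups alone, Per3 (-1.09, adjusted p = 0.0118), Cry2 (0.40, adjusted p = 0.00727) and Dbp (-0.95, adjusted p = 0.0487) were. With the oocyte covariate, Cry1, Clock, Nr1d1 and Nr1d2 were not called, and Per3 (2.80, adjusted p = 0.0121) and Arntl (2.48, adjusted p = 0.0283) were called higher. The cumulus 12 h oocyte sums lay below those of all other groups, so the covariate and this difference cannot be told apart.

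The 10 genes ranged widely over the 6 group means. Per2 spanned 14.6-fold from its highest group, mural cells at 0 h, to its lowest, cumulus cells at 12 h, and Dbp spanned 10.5-fold from mural cells at 0 h to cumulus cells at 4 h. Clock spanned the least, 2.84-fold, from mural cells at 4 h to cumulus cells at 0 h. Ordered by mean, all 5 neighbouring pairs of groups were apart for Per1 and 4 of 5 for Clock, but 1 of 5 for Per3 and for Nr1d1. The cumulus 4 h libraries of Per3 and Nr1d1 spread widely, but other groups overlapped too, such as cumulus and mural cells at 0 h for both genes.

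Levels of different genes were compared per kilobase of annotated exon, as CPM per kb. In mural cells Per1 was the highest of the 10 at each time, at 11.8, 46.4 and 33.7 CPM per kb. Arntl was the lowest at 0 h, at 1.53 CPM per kb, and the fourth highest at 12 h, at 11.3 CPM per kb. In cumulus cells Cry1 was the highest at 0 h and 4 h, at 14.2 and 30.7 CPM per kb, and Per1 at 12 h, at 17.2 CPM per kb. The lowest means there were Per2 at 0 h (1.28 CPM per kb) and 12 h (0.288 CPM per kb) and Dbp at 4 h (0.260 CPM per kb). At 0 h Per2 was close to Dbp (1.28 ± 0.24 and 1.36 ± 0.39 CPM per kb, mean ± SD). At 12 h it was close to Per3 (0.288 ± 0.062 and 0.313 ± 0.067 CPM per kb), so neither of these orders is firm. Which transcripts were expressed was not measured, so the lengths are those of all annotated exons.

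A list of 20 other clock pathway genes gave 6 called higher and 5 lower in mural cells by 4 h, against 22.8% and 22.3% of all genes. By 12 h 9 were higher and 3 lower, against 21.6% and 19%, and between 4 and 12 h 8 rose and 3 fell, against 18.3% and 16.1%. In cumulus cells the counts were 6 and 5 by 4 h (25% and 22.8% of all genes), 7 and 7 by 12 h (31.2% and 32.9%), and 8 and 8 between 4 and 12 h (29.2% and 31.3%). Of the 20, cumulus cells had 3 higher and 3 lower than mural cells before hCG (21.5% and 25.3% of all genes), 8 higher and 6 lower at 4 h (27.6% and 27%), and 1 higher and 7 lower at 12 h (18% and 20.5%). The tests of unequal change gave 0 higher and 2 lower to 4 h (6.78% and 7.26%), and 2 higher and 9 lower to 12 h (20.1% and 20%). Many of these counts lie near the share over all genes and are no result about the list.

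Among the repressors on that list, Bhlhe40 (DEC1), which competes at E-boxes, was higher than at 0 h at both later times in both cell types. Its mean was 22.8, 203 and 441 CPM in mural cells and 49.9, 310 and 616 CPM in cumulus cells at 0, 4 and 12 h, with log2 changes at 4 h of 3.16 ± 0.18 and 2.64 ± 0.18. Nfil3, a repressor at D-boxes, went from 8.27 to 80.5 and 182 CPM in mural cells (3.28 ± 0.27 and 4.46 ± 0.28 against 0 h) and from 17.4 to 193 CPM by 12 h in cumulus cells (3.47 ± 0.27). Ciart, which encodes a repressor of the dimer, fell at 4 h by 4.24 ± 0.28 in mural cells, from 17.9 to 21.2 CPM down to 0.571 to 1.33 CPM, and by 3.25 ± 0.26 in cumulus cells. Mural Ciart then rose by 2.62 ± 0.27 to 12 h. Tef, a D-box activator related to Dbp, fell at 4 h by 2.06 ± 0.16 in cumulus cells, from 84.2 to 20.1 CPM, and by 1.83 ± 0.16 in mural cells, from 103 to 28.9 CPM.

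Rora encodes a receptor that activates through ROR elements. Mural Rora had means of 18.9 and 16.5 CPM at 0 and 4 h and 267 CPM at 12 h, a change of 4.02 ± 0.32 from 4 to 12 h. Cumulus Rora had means of 24.5, 11.6 and 85.5 CPM at the 3 times, with a fall of 1.07 ± 0.30 by 4 h and a rise of 2.88 ± 0.31 from 4 to 12 h. Npas2, a relative of Clock, rose by 1.89 ± 0.50 in mural cells from 4 to 12 h. In cumulus cells Npas2 (-3.31 ± 0.53), Bhlhe41, a relative of Bhlhe40 (-5.53 ± 0.70), and the deubiquitinase gene Usp2 (-3.34 ± 0.43) fell from 4 to 12 h. These 3 were at 25.4, 17.9 and 38.4 CPM in replicate 3 of the cumulus 4 h group, against at most 7.47, 3.48 and 12.7 CPM in the other 2, and the part of its oocyte RNA in these falls was not tested. Against 0 h, cumulus Bhlhe41 changed by -5.61 ± 0.70 and Usp2 by -3.27 ± 0.43 at 12 h. Bhlhe41 stood at 0.325, 0.117 and 0.0792 CPM in the cumulus 12 h libraries, and the last equals 3 counts. The size of both Bhlhe41 falls thus rests on very few counts. Fbxl21, a ubiquitin ligase gene, fell by 2.51 ± 0.73 in mural cells at 4 h from a level of only 1.10 CPM.

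**Figure D4:**
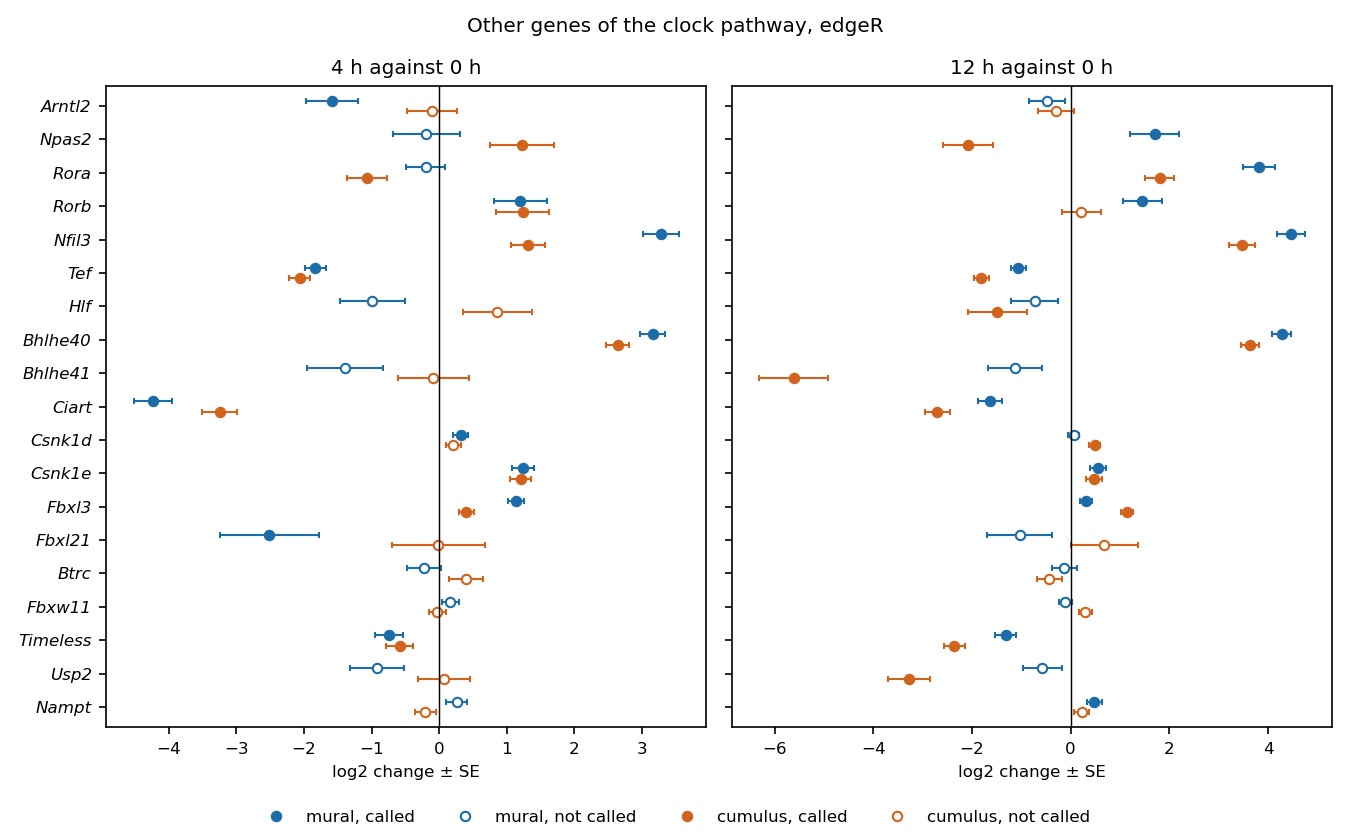
Log2 change ± SE of other clock pathway genes against 0 h in mural (blue) and cumulus (orange) cells, from edgeR, with filled points called and open points not called. Nfil3 and Bhlhe40 lie to the right of 0 at both times and Ciart to the left, in both cell types.

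Genes whose pattern was most like that of a clock gene were found as those with the smallest root mean square difference of centred log2 CPM over the 18 libraries, among 11015 candidates. The libraries share groups and oocyte RNA, so these distances describe the table and carry no test. For Per1 they were Scarb1 (0.252), Cltc (0.254) and Usp53 (0.264), against a median candidate at 1.12. Scarb1, the HDL receptor gene, had means of 582, 2211 and 1387 CPM in mural cells and 357, 815 and 1077 CPM in cumulus cells at 0, 4 and 12 h. The nearest clock gene to Per1 was Cry2 (0.476), then Clock (0.528), while Per2 stood at 1.53 and Per3 at 2.02. For Arntl the nearest genes were Hpse (0.311), Emp2 (0.419) and Furin (0.424), with the median at 1.21.

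For Nr1d1 the nearest were Fry (0.243), Magi1 (0.283) and Cenpo (0.310), against a median of 0.909, and the nearest clock gene was Cry1 (0.612). Fry had a cumulus 4 h mean of 18.9 ± 14.8 CPM (SD, n = 3), beside 15.6 ± 6.66 CPM for Nr1d1. For Dbp the nearest were Azin2 (0.353), Prss23 (0.410) and Dhdh (0.410), against a median of 1.18, and the nearest clock genes were Nr1d2 (0.653) and Per2 (0.707). Azin2 had means of 27.6, 5.29 and 15.99 CPM in mural cells and 11.01, 2.87 and 7.49 CPM in cumulus cells, with the low point at 4 h in both, as for Dbp.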

How the data were processed

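The authors deposited 1 table of whole-number read counts per gene, from reads that mapped uniquely. Alignment and counting used CLC Genomics Workbench, per the labels' design text, and the build GRCm38 is from the submitters' processing notes. The version, the annotation and any strand setting of that step could not be read from the labels. Libraries held from 32211630 to 47919446 counts.

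The tests ran in edgeR 4.0.16 under R 4.3.3. The function filterByExpr, at its minimum count of 10, chose the genes tested, counts were scaled by TMM, and 1 quasi-likelihood model with robust spread and a mean for each of the 6 groups gave 11 comparisons. Adjusted p-values are edgeR's quasi-likelihood p after Benjamini-Hochberg over 19941 genes. SE was the log2 change divided by the square root of F. Scripts were tested on simulated data.

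The members and lists were chosen with earlier results of these data known. All members are named. Of the 20 other clock genes, up to 4 called genes with the largest change were named per time comparison, and 1 gene of that list is not reported here. Likeness used genes of at least 5 CPM on average, with 0.5 added before log2. Promoter letters came from RefSeq (GRCm38.p6), and Per2 had no entry there. Alternatives were DESeq2 1.42.0, library totals, no filter, a replicate block, the oocyte sum as a covariate, only the groups compared, both cumulus libraries that stood apart left out, and each library left out. Replicates differed by more than sampling noise in every group.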

Additional observations from a re-analysis of the deposited data

Results flagged for a closer look

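The change after hCG differed between cumulus and mural cells for 7 clock genes in the direct test of that difference, in 9 results in all. Values are the cumulus change minus the mural change on the log2 scale. From 0 to 4 h they were -0.69 for Per1, -0.45 for Clock, 2.15 for Per3 and 1.51 for Nr1d1. That is 2 of 10 lower and 2 higher, against 7.26% and 6.78% of all genes. The Per3 call was lost in 10 of 12 fits with 1 library left out. From 0 to 12 h the values were -1.95 for Per2, -1.53 for Cry1, -1.87 for Nr1d1, 0.41 for Clock and 0.84 for Nr1d2. That is 3 of 10 lower and 2 higher, against 20% and 20.1% of all genes. Nr1d1 and Clock were thus picked out at both times, each with opposite signs, and both comparisons share the 0 h libraries. The Clock difference to 4 h was not called with library totals. With the oocyte covariate, the differences to 12 h of Cry1, Clock, Nr1d1 and Nr1d2 were not called, and covariate and group cannot be told apart there.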

How the results depend on the processing

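The 10 genes in 11 comparisons gave 110 results, which share libraries, and 79 were called. These 79 count both directions. In both directions together, calls over all 19941 genes tested ran from 2800 (difference to 4 h) to 12796 (cumulus 12 h against 0 h). The share called in 1 direction alone ran from 6.78% (difference to 4 h, higher) to 32.9% (cumulus 12 h against 0 h, lower). Of the 79 called results, 47 kept direction and call under all alternatives, and 68 did so when the oocyte covariate was left aside. DESeq2 and library totals reversed no called result, and they lost 0 and 5 calls. Library totals moved the share of called genes that were higher from 53.2% to 39.9% (mural 12 h against 0 h), 53.2% to 66.8% (mural 12 h against 4 h), 52.3% to 41% (cumulus 4 h), 48.7% to 38.1% (cumulus 12 h against 0 h), 46.7% to 35.6% (cell types at 12 h) and 48.3% to 69.3% (difference to 4 h). With the replicate block, Cry2's difference to 4 h was called (-0.66, adjusted p = 0.0335) and no other call changed. The numbers were not taken as pairing, since a correlation of deviations above 0.1 in every same-numbered pair was asked for. It was above 0.1 in 14 of 45 same-numbered and 12 of 90 differently numbered pairs (medians 0.0345 and -0.0134), and 10 of 18 libraries correlated best with their own number, a hint from the data and not the design.

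With the oocyte covariate, clock genes called went from 9 to 4 (cumulus 12 h against 0 h), 8 to 1 (12 h against 4 h), 8 to 5 (cell types at 4 h) and 5 to 3 (difference to 12 h). Signs turned for Per3 (-0.84 in cumulus cells at 4 h, 1.21 at 12 h, 2.05 from 4 to 12 h, 1.997 between cell types at 12 h, 2.80 in the difference to 12 h), Arntl (-1.01, -1.46 and 1.47 between cell types at 0, 4 and 12 h, 2.48 in the difference to 12 h), Cry1 and Nr1d1 (0.78 and 0.023 in cumulus cells at 12 h) and Per1 (-0.052 from 4 to 12 h). The cause was not tested. Oocyte sums did not overlap between cell types at 4 h or 12 h, or between cumulus 12 h and any other group. Covariate and group cannot be told apart in those comparisons. Without both cumulus libraries, Per3 at 4 h was -1.18, Arntl between cell types at 4 h -0.32 and Arntl's difference to 4 h -0.81, and 8 genes rather than 5 were called in the difference to 12 h, as in a fit of only the groups compared (8). Calls over all genes in that difference went from 8003 to 10110 and 9497 in these 2 fits. With 1 library left out at a time, cumulus Per3 at 4 h ranged from -0.95 to 0.51, and 4 to 7 genes were called between cell types at 0 h.

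Counts of all genes called moved by over 1.5 times in a fit of only the groups compared (cumulus 4 h, 5509 against 9532; difference to 4 h, 1564 against 2800), without replicate 2 of the cumulus 4 h group (difference to 4 h, 4272) and with the oocyte covariate (cumulus 12 h against 0 h, 6643 against 12796; 12 h against 4 h, 4232 against 12065; cell types at 4 h, 5666 against 10876, and at 12 h, 5111 against 7680; difference to 12 h, 4790 against 8003). Group levels with library totals were 0.895 to 1.13 times those with TMM. Counting only bases before the start left 0 members with a ROR element. The lowest levels, of Dbp in cumulus cells, rest on the fewest counts.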
